A study of Mus musculus with 20 samples.

Results

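The mitochondrial ribosomal protein genes encode the proteins of the mitoribosome, the ribosome inside mitochondria. All genes whose symbol is Mrpl or Mrps followed by a number and at most 1 letter were taken if they had at least 10 counts in each of 20 mice. The name pattern matched 78 of the 25239 genes in the count table, and all 78 passed the minimum. The lowest count of any of them in any mouse was 96 (Mrpl14) and the highest was 5075 (Mrps25). By the standard assignment of the proteins, 51 of the genes encode large subunit proteins and 26 encode small subunit proteins. The remaining gene, Mrps36, carries the name, but its protein is now assigned to a metabolic enzyme complex.

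The samples were preoptic areas (POA), the hypothalamic region that holds most gonadotropin-releasing hormone (GnRH) neurons, from 20 male mice at postnatal day (PND) 320. Each mouse gave 1 bulk RNA-seq library. Control and dnFGFR genotypes were each kept under SS and OS housing, which gave 4 groups of 5 mice. dnFGFR mice were homozygous for a transgene under a rat GnRH promoter, which drives a truncated FGF receptor without its kinase domain in GnRH neurons, so few cells of the dissected tissue carry the manipulation. Controls shared their background, since their parents were heterozygous carriers of the transgene. From weaning, SS males lived for 300 days with another male and OS males with a female, and OS pairs bred and raised litters, so cohabitation with a female and fatherhood cannot be told apart. Total counts per mouse ranged from 32353578 to 39871353. Gnrh1 was detected at 0.949 to 2.53 CPM (counts scaled to the size of the library) in every mouse. The 6 preoptic area markers examined had no gene at 0 in any mouse, and their summed level was lowest in dnFGFR OS replicate 2 (15.5 CPM) and highest in control OS replicate 2 (39.2 CPM).

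Mitoribosomes translate the few proteins that mitochondrial DNA encodes, all of them core subunits of the respiratory chain and ATP synthase. Every mitoribosomal protein is encoded in the nucleus, made on cytosolic ribosomes and imported, and many have no counterpart in bacterial ribosomes. Neurons depend on oxidative phosphorylation, and the same nuclear factors, among them NRF1, the ETS family factor GABP and YY1, are known to bind promoters of genes for mitoribosomal and respiratory chain proteins.

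The shared regulation named in that background can be looked for as letters in the promoters. RefSeq promoter windows of build GRCm38.p6, 250 bases before to 50 bases after each annotated start, were matched by symbol for 69 of the 78 genes, in 75 windows. Exact matches were sought on both strands to the NRF1 core, a palindrome of 10 bases that stands in capitals in the Mrpl32 and Mrpl9 sequences, to CCGGAAGT, an ETS core, and to AAGATGGC, a YY1 core. None of these letter strings lies within another. The NRF1 core was found in 3 windows (4%), against 0.971% of all 32851 promoter windows. ETS and YY1 cores were each found in 12 windows (16%), against 3.89% and 2.75% of all windows. At least 1 of the 3 was present in 25 windows (33.3%), against 7.32% of all. Windows of cytosolic ribosomal protein genes were similar, with 28.9% of 76 holding at least 1. The median GC content was 58.7% in the windows of mitoribosomal genes and 52.7% in all windows, and its part in these shares was not tested. The ETS matches lay before the start in 10 cases and reached past it in 2, while 8 of 12 YY1 matches reached past it. A match is a description of letters and not a shown binding site.

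The 100 bases before the annotated start are printed 5′ to 3′ on the coding strand for 5 genes. Mrpl32 and Mrpl9 show the NRF1 core, and Mrpl3, Mrps22 and Mrps27, which are among the genes nearest to a difference in the comparisons, show the ETS core. Capitals mark the matched letters. Their positions are chr13:14613038-14613137, minus strand, for Mrpl32, chr3:94443236-94443335, plus strand, for Mrpl9, chr9:105053168-105053267, plus strand, for Mrpl3, chr9:98601680-98601779, minus strand, for Mrps22 and chr13:99344686-99344785, plus strand, for Mrps27.
Mrpl32: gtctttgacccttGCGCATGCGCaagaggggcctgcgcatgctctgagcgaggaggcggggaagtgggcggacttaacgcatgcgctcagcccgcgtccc
Mrpl9: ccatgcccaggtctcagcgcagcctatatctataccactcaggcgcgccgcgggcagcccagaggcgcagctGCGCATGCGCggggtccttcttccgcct
Mrpl3: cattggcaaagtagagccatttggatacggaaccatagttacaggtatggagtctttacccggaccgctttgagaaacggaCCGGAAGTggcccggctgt
Mrps22: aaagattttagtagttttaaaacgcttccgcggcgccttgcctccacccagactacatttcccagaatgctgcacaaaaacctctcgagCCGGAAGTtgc
Mrps27: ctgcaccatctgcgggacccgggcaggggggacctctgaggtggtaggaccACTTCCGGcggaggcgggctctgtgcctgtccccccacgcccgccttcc
The distance from the first matched letter to the start was 87 bases in Mrpl32, 28 in Mrpl9, 19 in Mrpl3, 11 in Mrps22 and 49 in Mrps27, where the match is on the opposite strand. The 78 genes are spread over 17 chromosomes, and only 1 pair lies within 10000 bases of each other. Mrpl46, a large subunit gene on the minus strand, and Mrps11, a small subunit gene on the plus strand, start head to head, with 41 bases between them at chr7:78783090-78783130, which are printed here on the plus strand because they are the whole interval that the pair shares.
Mrpl46 and Mrps11: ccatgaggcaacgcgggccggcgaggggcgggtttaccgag
None of the 3 cores lies in these 41 bases. A YY1 core lies on the opposite strand in the Mrps11 window, 107 bases before the Mrps11 start.

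The members were a small part of the POA transcriptome. Their summed level ranged from 1671 to 2414 CPM over the mice, or 0.164% to 0.240% of all counts, and large subunit genes made up 65.4% of it. The mean level over 20 mice ranged from 6.61 CPM (Mrps28) to 121.9 CPM (Mrps25), with a median of 23.1 CPM. Exon length enters these values, so levels were compared between genes per kilobase of exon (FPKM), where the median was 17.8 and the highest gene lay 14.7-fold above the lowest.

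Highest per length was Mrpl52, with a mean of 42.4 FPKM (24.6 to 52.6 over the mice), a large subunit protein found only in mitochondria. Mrps21 (39.7 FPKM, 18.3 to 58.0), Mrpl30 (39.6 FPKM, 29.4 to 53.2) and Mrpl33 (35.8 FPKM, 23.9 to 52.3), which have bacterial counterparts, followed. The ranges of these 4 genes over the mice overlap. All were measured in the same mice, and their order within each mouse was not examined. Lowest per length were Mrpl47 (2.89 FPKM, 2.40 to 3.57), Mrps35 (3.63 FPKM, 3.08 to 4.13), Mrpl32 (3.95 FPKM, 3.31 to 6.05) and Mrpl15 (4.07 FPKM, 2.88 to 5.40), whose ranges also overlap. The annotated exon length of Mrpl32, 3013 bases, exceeds its RefSeq gene span of 2737 bases. That is so for 5 of the 78 genes, and their levels per length are uncertain. Mrps25, with the most counts, fell to rank 33 of 78 per length because its exons sum to 6073 bases. It overlaps the gene Nr2c2 over 3547 bases, one of 25 members that overlap another annotated gene, and reads from the shared bases cannot be told apart without strand.

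Genes of known place in the ribosome lay between these ends. In the stalk that recruits translation factors, Mrpl10 had 28.5 FPKM and Mrpl12, also known to bind the mitochondrial RNA polymerase, 26.01 FPKM, while Mrpl11 at the stalk base had 8.89 FPKM. Mrps12, part of the decoding centre, had 20.9 FPKM. Of the 3 paralogues of bacterial S18, Mrps18a had 32.2 FPKM, Mrps18c 23.6 FPKM and Mrps18b 19.2 FPKM. Mrps18a and Mrps30 (7.50 FPKM) keep small subunit names although their proteins sit in the large subunit. Mrpl45, which tethers the ribosome to the inner membrane, had 13.7 FPKM, Mrpl44, with a ribonuclease III-like fold, 12.9 FPKM, and Mrpl58, related to release factors, 11.8 FPKM.

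Some libraries stood apart before any comparison. The summed level in dnFGFR OS mice was 2023 CPM in replicate 1, 2414 in replicate 2, 1841 in replicate 3, 1976 in replicate 4 and 1671 in replicate 5. Replicates 2 and 5 of this group were thus the highest and the lowest of all 20 mice. dnFGFR OS replicate 2 held the highest value of the 20 mice for 53 of the 78 genes, and dnFGFR OS replicate 5 the lowest for 46.

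In the other groups the mice lay closer together. Control SS mice had 2103, 2017, 1940, 1935 and 1947 CPM. Control OS mice had 1941, 2241, 1876, 2001 and 2066 CPM, with replicate 2 high. dnFGFR SS mice had 1935, 1981, 2176, 1983 and 2124 CPM, with replicates 3 and 5 high. The group means were 1988 ± 72.3 in control SS, 2025 ± 140 in control OS, 2040 ± 104 in dnFGFR SS and 1985 ± 276 in dnFGFR OS (SD, n = 5 each). These means differ by less than the SD of the dnFGFR OS group, and the 4 groups overlap. Without dnFGFR OS replicate 5 that group had 2063 ± 246 CPM, and without replicate 2 it had 1878 ± 158 CPM (SD, n = 4 each), so leaving out replicate 5 moved this mean from the lowest of the 4 to the highest, and without replicate 2 it remained the lowest. In bulk tissue, fewer cells of a type and less RNA per cell cannot be told apart.

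**Figure D1:**
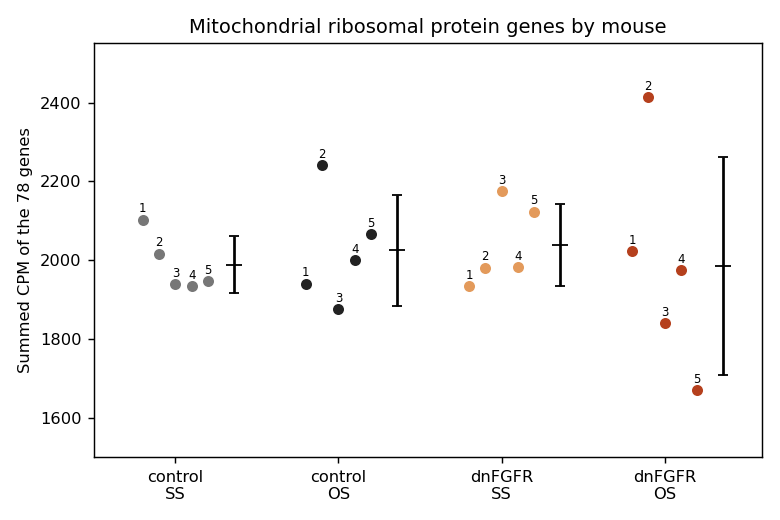
Summed level of the 78 mitochondrial ribosomal protein genes in each mouse, in CPM (vertical axis, which does not start at 0), by group. Points are mice with their replicate numbers, and the dash with bars at the right of each group is the mean ± SD of 5 mice. dnFGFR OS replicates 2 (2414 CPM) and 5 (1671 CPM) are the extremes, and the 4 groups overlap.

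The genes moved together from mouse to mouse. Relative to its own mean over 20 mice on the log2 scale, 75 of 78 genes were above it in dnFGFR OS replicate 2, 71 in control OS replicate 2, 68 in dnFGFR SS replicate 3 and 66 in dnFGFR SS replicate 5. Only 9 were above it in dnFGFR OS replicate 5, and 16 each in control OS replicate 3 and dnFGFR OS replicate 3. Of all genes tested over 20 mice, the share above their mean in these mice ran from 49.0% (dnFGFR OS replicate 5) to 54.5% (control OS replicate 2). With group means removed, the median correlation between 2 of the genes over 20 mice was 0.591, and 90.6% of 3003 pairs were positive. Without dnFGFR OS replicates 2 and 5 the median was 0.402 over 18 mice, and 84.7% of pairs were positive. All genes of a mouse share 1 library and its scaling, and pairs of other genes were not examined, so these correlations are a description.

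Members differed in how far they moved. In dnFGFR OS replicate 2 the median deviation was 0.38 for the 39 shorter genes and 0.24 for the 39 longer ones, and in dnFGFR OS replicate 5 it was -0.42 and -0.22. Mrpl20 showed the largest fall of that mouse, 1.29 below its mean on the log2 scale. The 9 genes above their mean in dnFGFR OS replicate 5 were led by Mrpl35 (0.40), Mrps25 (0.35), Mrpl1 (0.22) and Mrpl47 (0.18), all with at least 3364 bases of exon. Mrps25, Mrpl35, Mrpl1 and Mrpl48 were the 4 genes with a negative mean correlation with the other members, -0.37, -0.27, -0.18 and -0.16.

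**Figure D2:**
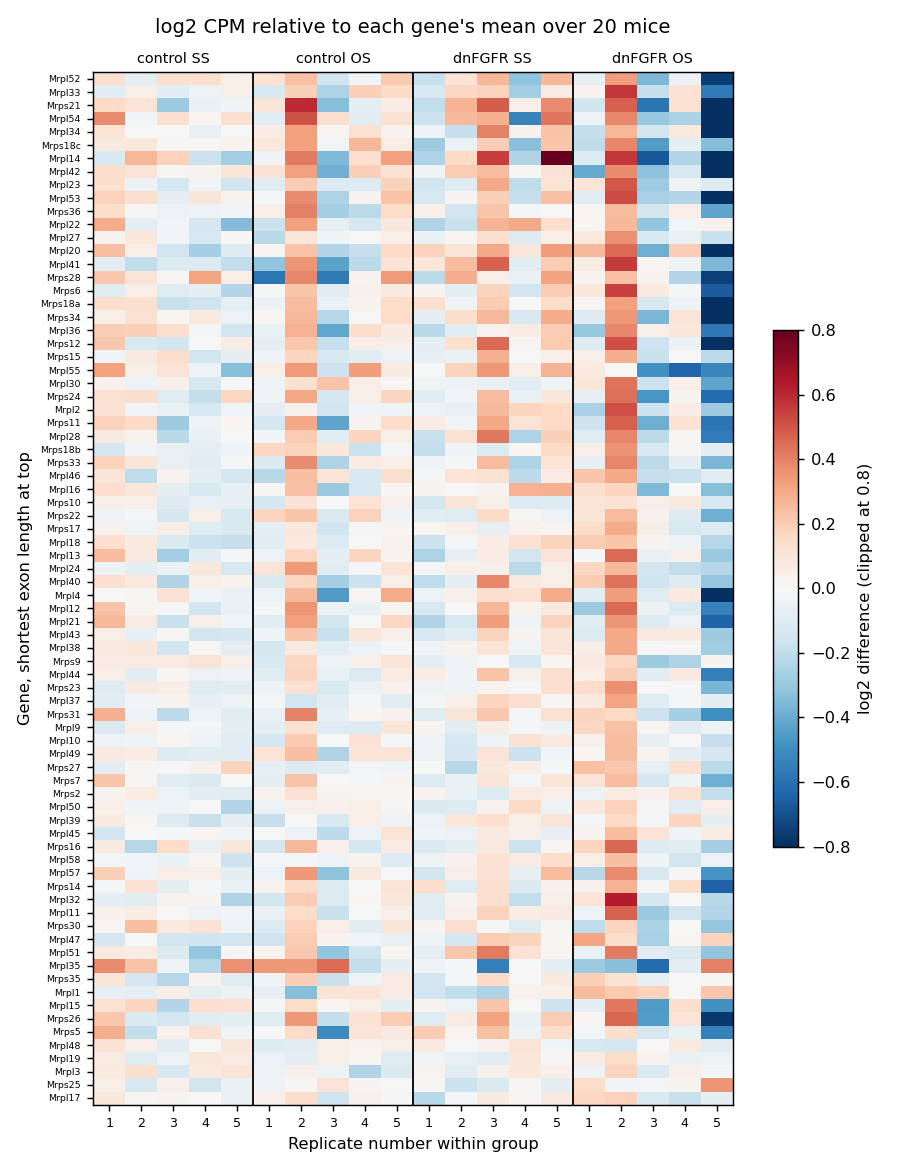
log2 CPM of each of the 78 genes (rows, shortest exon length at the top) in each mouse (columns, by group and replicate number) minus the gene's mean over 20 mice, with colours clipped at 0.8. The column of dnFGFR OS replicate 2 is higher for 75 genes and that of dnFGFR OS replicate 5 lower for 69, and Mrpl35 runs against its neighbours in several mice.

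The spread between mice of a group was larger for short genes. The pooled within-group SD of log2 CPM had a median of 0.190 over the 78 genes, from 0.0739 (Mrpl19) to 0.482 (Mrpl14), against 0.183 for all 17445 genes tested over 20 mice and 0.147 for 9982 genes of similar level. Across the 78 genes the SD fell with exon length (Spearman's rho -0.592) and with mean level (-0.503) and rose with exon GC content (0.385). These values share the same libraries and genes are not independent replicates. The members were short, with a median of 1284 bases of exon against 2942 for all genes tested, and similar in GC content, 50.5% against 50.4%. The ratio of the highest to the lowest mouse had a median of 1.69 and was largest in Mrpl14 (5.21), Mrpl54 (3.41), Mrpl20 (3.34) and Mrps21 (3.17).

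**Figure D3:**
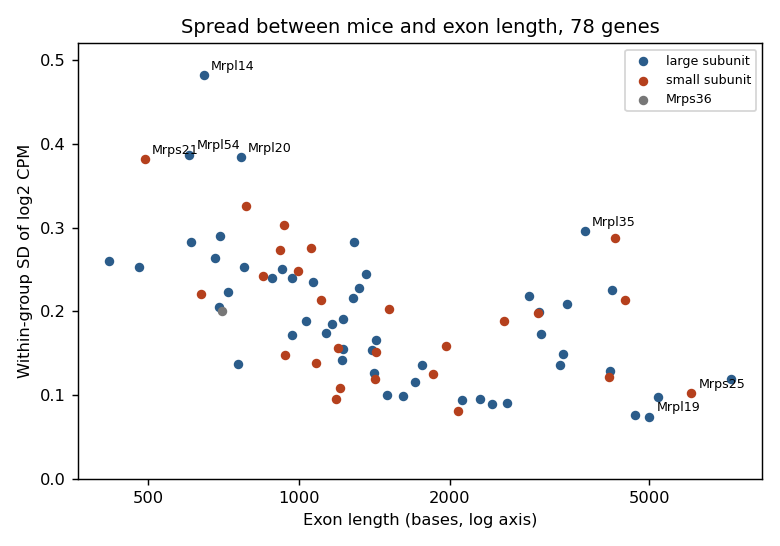
Pooled within-group SD of log2 CPM (vertical axis) against exon length in bases (horizontal log axis) for the 78 genes, coloured by ribosomal subunit. Mrpl14 has the largest SD (0.482) and Mrpl19 the smallest (0.0739), and short genes lie higher.

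The same mice stood apart in other genes. In dnFGFR OS replicate 2 the median deviation was 0.30 for the 78 members, 0.38 for cytosolic ribosomal protein genes and 0.41 for nuclear genes of respiratory chain subunits. In dnFGFR OS replicate 5 the 3 medians were -0.31, -0.34 and -0.49. That library had reads in 18416 genes, against 19101 to 19659 in the others, and over all genes its deviations fell with GC content (rho -0.516) and rose with exon length (0.390). dnFGFR OS replicate 2 had rho 0.198 with GC content and -0.400 with length. The part of these trends in the members' levels was not tested apart from a correction of each fit for GC content and exon length, whose values stand beside the comparisons they moved.

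Markers of other tissue varied as well. The 4 choroid plexus markers, of which Ttr was the most abundant, summed to 6.66 to 2098 CPM. The 3 mice with the highest member sums differed in this, with 7.47 CPM in dnFGFR OS replicate 2, 1885 in control OS replicate 2 and 1534 in dnFGFR SS replicate 3. dnFGFR OS replicate 5 had 375.9 CPM. One of the 4 markers was at 0 in dnFGFR SS replicate 4, and none in the other mice.

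The first comparison asked whether 300 days with a female changed the members in control mice. None of the 78 genes was called at an adjusted p below 0.1 by edgeR's quasi-likelihood test with Benjamini-Hochberg adjustment over 17004 genes, where 0.124% of all genes were called. The smallest adjusted p of a member was 0.702. DESeq2, which called more genes in all than edgeR (count in the last section), called no member either. No member had an unadjusted p below 0.05, against 7.2% of all genes. Values for OS were above those for SS in 55 genes and below in 23, with fold changes on the log2 scale from -0.16 to 0.14 and a median of 0.03, against 0.00 for all genes, of which 50.9% were above 0. Large subunit genes had a median of 0.02 and small subunit genes 0.04.

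Mrpl24, one of the proteins that start assembly of the large subunit in bacteria, had the smallest p among members with higher values in OS mice. It stood at 36.5, 35.8, 36.4, 39.98 and 34.4 CPM in control SS and 40.4, 47.6, 35.4, 37.3 and 40.6 CPM in control OS mice. The groups overlap, control OS replicate 2 is the highest, and the difference was 0.14 ± 0.0747 (log2, SE; adjusted p = 0.747, edgeR). Mrps22 (0.14 ± 0.079) and Mrps6 (0.13 ± 0.0744) were similar. In the other direction stood Mrpl3, which lies near the peptidyl transferase centre, at -0.13 ± 0.0626 (adjusted p = 0.702), Mrps27 at -0.09 ± 0.0632 and Mrps28 at -0.16 ± 0.178. Single mice moved these values, since Mrpl24 was at 0.07 and Mrps6 at 0.09 without control OS replicate 2, Mrps27 at -0.05 without control SS replicate 5, and Mrps28 at -0.05 without control OS replicate 1 and -0.28 without control OS replicate 2. Without control OS replicate 2 the median over members was -0.02 and 31 genes were above 0, so the slight tilt upward rested on that mouse. After a correction for GC content and length it was 0.00. Sacrifice dates that held both housings had 2 SS and 5 OS mice, and values within these dates stand in the last section. All 4 choroid plexus markers had higher values in OS mice (median 1.54 on the log2 scale). Their mean sums were 300.7 CPM in control SS (8.05 to 1028) and 1155 CPM in control OS (20.7 to 1885), and the groups overlap. Higher values were also seen for all 3 ependymal (0.29), 3 of 4 astrocyte (0.04) and 4 of 6 preoptic area markers (0.06). The same held for 3 of 4 markers of a further cell type, which is not named here (0.09). All 5 markers of striatal medium spiny neurons (-0.06), 3 of 4 endothelial (-0.08) and 2 of 3 neuronal markers (-0.02) had lower values. The 4 microglial markers were evenly split (-0.01). None of these was called by edgeR, and their part in the members' values was not tested.

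Housing was compared next in dnFGFR mice. edgeR called no member and no gene of the 16944 tested (0%). The smallest adjusted p of any gene was 0.726, while 1138 genes had an unadjusted p below 0.05 (6.72%), and DESeq2 called 5 genes, none of them a member (Ttc34, Kbtbd6, 1700110K17Rik, Mir3091 and Gm5415, named here after their values were seen). Of the 78 members, 2 had an unadjusted p below 0.05 (2.56%). Values for OS were above those for SS in 31 genes and below in 47, while 50.9% of all genes were above 0. The median was -0.04, against 0.00 for all genes, and the range was -0.58 to 0.28. Fold changes fell with GC content over all genes (Spearman's rho -0.498) and over the members (-0.371), a description across genes, which are not independent replicates. The 39 members of higher GC content had a median of -0.11 and the 39 of lower GC content -0.01. The member median was -0.03 after correction for GC content and length, and -0.08 within the sacrifice dates shared by the housings (2 mice with SS and 4 with OS housing).

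Mrpl55, the counterpart of bacterial L31, was lowest in dnFGFR OS mice. Its levels were 12.7, 14.4, 16.2, 13.2 and 15.4 CPM in dnFGFR SS and 13.5, 12.8, 9.13, 8.23 and 8.88 CPM in dnFGFR OS mice, where 3 mice lay below every mouse of the other group. The groups overlap through OS replicates 1 and 2. The difference was -0.45 ± 0.147 (log2, SE; 95% interval -0.79 to -0.12, adjusted p = 0.726, edgeR).

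Mrpl1, which forms the stalk where used tRNA leaves the ribosome, went the other way. It stood at 16.6, 16.1, 15.6, 19.0 and 19.0 CPM in dnFGFR SS and at 22.1, 21.4, 21.0, 18.4 and 21.5 CPM in dnFGFR OS mice, and only OS replicate 4 fell among the SS values. The difference was 0.28 ± 0.0901 (95% interval 0.07 to 0.48, adjusted p = 0.726, edgeR). Both intervals leave out 0 but neither gene passed the adjustment over all genes.

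Other members nearest to a difference were Mrps25 (0.17 ± 0.0815) and Mrpl45 (0.09 ± 0.0733) with higher values in OS mice, and Mrps5 (-0.22 ± 0.114) and Mrpl42 (-0.32 ± 0.172) with lower ones. Mrps25 was at 154.9 CPM in OS replicate 5, which had the lowest member sum, and its log2 difference was 0.10 without that mouse. Without the same mouse Mrps5 was at -0.13 and Mrpl42 at -0.20, while without dnFGFR OS replicate 2 Mrpl42 was at -0.51 and Mrpl45 at 0.05. Which mice were included set the direction of the members as a whole. Without dnFGFR OS replicate 2 the median was -0.13 and 12 genes were above 0, and without dnFGFR OS replicate 5 it was 0.01 and 42 genes were above 0. No member was called in either case.

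Markers of striatal medium spiny neurons, a cell type of the neighbouring striatum, had their lowest mean sum in dnFGFR OS mice. The 5 markers, of which Ppp1r1b was the most abundant and none was at 0 in any mouse, summed to 1755, 2025, 1272, 1882 and 1613 CPM in dnFGFR OS and to 1832, 2311, 2027, 2021 and 2224 CPM in dnFGFR SS mice. The group means were 2235 ± 237 CPM in control SS, 2153 ± 196 in control OS, 2083 ± 188 in dnFGFR SS and 1709 ± 288 in dnFGFR OS (SD, n = 5 each), and the dnFGFR groups overlap. All 5 markers had lower values in OS than in SS mice here (median -0.21 on the log2 scale). Higher values in OS mice were seen for all 4 choroid plexus markers (median 0.46), all 4 astrocyte markers (0.14), 3 of 4 microglial markers (0.17), 2 of 3 neuronal (0.05) and 2 of 3 ependymal markers (0.015), while 5 of 6 preoptic area markers (-0.13) had lower values and the 4 endothelial markers were evenly split (-0.02). The cell type not named here had higher values in OS mice for 3 of 4 markers (0.127). None of these markers was called by edgeR, and their part in the members' values was not tested.

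**Figure D4:**
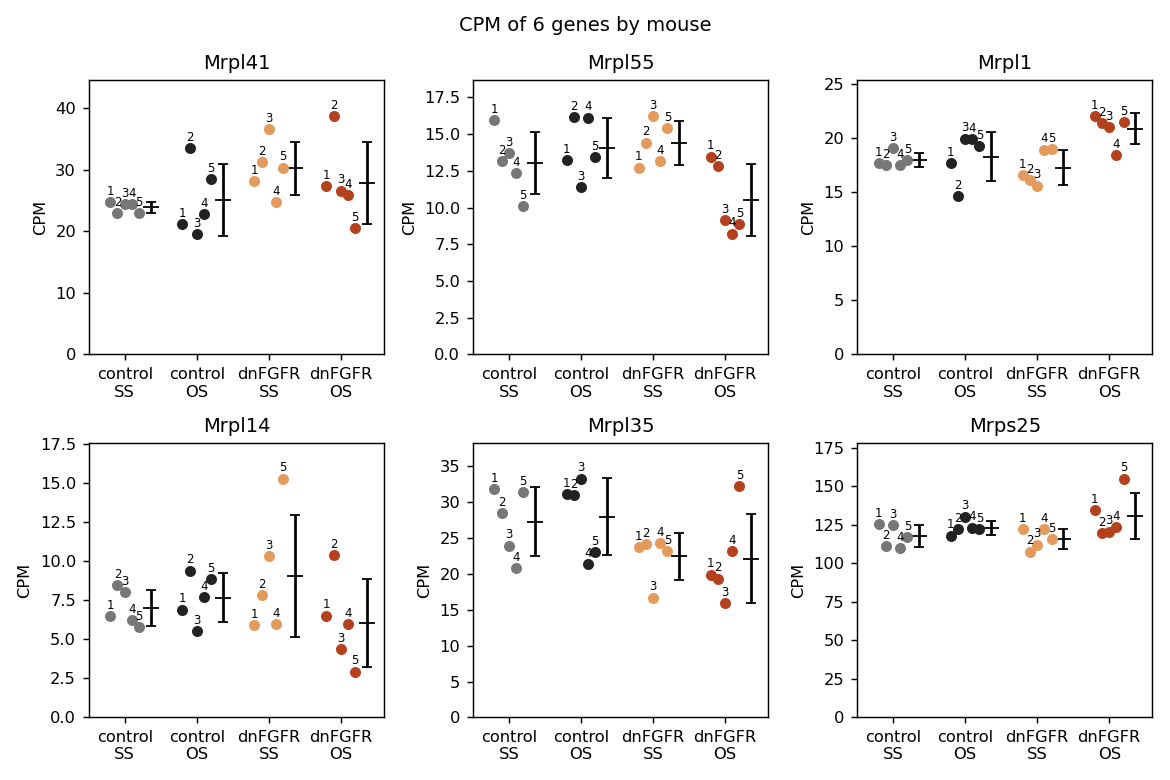
CPM of 6 members in each mouse by group (points with replicate numbers, with mean ± SD of 5 mice at the right of each group, vertical axes from 0). Mrpl55 is lowest in dnFGFR OS replicates 3 to 5, Mrpl1 is high in 4 of 5 dnFGFR OS mice, Mrpl41 is higher in 4 of 5 dnFGFR SS than in all control SS mice, and Mrpl35 and Mrps25 reach their highest dnFGFR OS value in replicate 5.

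Genotype was compared within each housing. No sacrifice date held mice of both genotypes, and an effect of date on this comparison cannot be told apart from one of genotype. Among SS-housed mice no member was called by edgeR, and 0.2% of 16992 genes were, while DESeq2 and the fit corrected for GC content and length called 1 member, Mrpl41. DESeq2 called many more genes in all than edgeR here (count in the last section), so 1 call does not set the members apart. The count of all genes called by the corrected fit is not given here. Values were above those of controls in 54 members and below in 24, with a median of 0.04 against 0.00 for all genes, of which 51.6% were above 0. An unadjusted p below 0.05 was seen for 3 members (3.85%), against 8.63% of all genes. The median was 0.00, with 42 members above 0, without dnFGFR SS replicate 3.

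Markers of other cell types also differed in value between these groups, and none was called by edgeR. By edgeR, 3 of 5 striatal, 3 of 4 endothelial and 2 of 4 microglial markers had an unadjusted p below 0.05, against 8.63% of all genes. So did 2 of 4 markers of the cell type not named here and at most 1 marker of each other list. The cell type not named here had lower values in dnFGFR SS mice for all 4 markers (median -0.176). All 5 striatal markers had lower values in dnFGFR SS mice (median -0.17), as did 3 of 4 endothelial markers (median -0.21), of which Flt1 was the most abundant, all 3 ependymal markers (median -0.17), 3 of 4 microglial (-0.09), 4 of 6 preoptic area (-0.03) and 3 of 4 astrocyte markers (0.00), while all 3 neuronal markers (0.08) and 3 of 4 choroid plexus markers (0.06) had higher values. The endothelial sum was 164 ± 5.36 CPM in control SS and 148.1 ± 18 CPM in dnFGFR SS mice (SD, n = 5 each), with overlap. Apart from the choroid plexus marker at 0 in dnFGFR SS replicate 4, no marker of these lists was at 0 in these mice, and their part in the members' values was not tested.

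Mrpl41, a large subunit protein found only in mitochondria, came nearest to the threshold of any member in any comparison. Its level was 24.8, 23.0, 24.4, 24.4 and 23.0 CPM in control SS mice, a narrow range, and 28.1, 31.3, 36.6, 24.7 and 30.4 CPM in dnFGFR SS mice. Only dnFGFR SS replicate 4 fell within the control values. The difference was 0.34 ± 0.0871 (log2, SE; 95% interval 0.14 to 0.54, adjusted p = 0.216, edgeR). Mrpl41 was called by DESeq2 (adjusted p = 0.0365), after correction for GC content and length (adjusted p = 0.0814) and in edgeR without dnFGFR SS replicate 4 (adjusted p = 0.0671). In OS-housed mice it had 25.1 ± 5.80 CPM in control and 27.8 ± 6.68 CPM in dnFGFR mice (SD, n = 5 each), a difference of 0.15 ± 0.171, and the interaction for this gene was -0.19 ± 0.207 (adjusted p = 0.963, edgeR), so a difference between the housings was not shown.

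Mrps9, a protein of the small subunit head, was the only member whose SS groups did not overlap, with 27.2 to 28.2 CPM in control and 24.2 to 26.6 CPM in dnFGFR mice. That makes 1 of 78 members lower without overlap, and 0.836% of all genes were so. Its difference was small, -0.11 ± 0.0525 (adjusted p = 0.588). Mrpl20 had a difference of 0.24 ± 0.0904 and Mrpl51 of 0.20 ± 0.0973, which was 0.12 without dnFGFR SS replicate 3. Mrpl35 was at -0.28 ± 0.123 (adjusted p = 0.532, edgeR) and Mrps30 at -0.07 ± 0.0666, which was -0.03 without control SS replicate 2. As a check on the model, Gnrh1 itself was at -0.67 ± 0.202 in this comparison (adjusted p = 0.308), and Fgfr1 at 0.00 ± 0.0426.

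Among OS-housed mice no member was called by edgeR, which called 0.0531% of 16941 genes. DESeq2, which called more genes in all (count in the last section), also called no member. Values were above those of controls in 28 members and below in 50, with a median of -0.04, against 0.00 for all genes, of which 50% were above 0. Only Mrpl55 had an unadjusted p below 0.05, which is 1.28% of members against 7.02% of all genes. It stood at 13.2, 16.2, 11.4, 16.1 and 13.4 CPM in control OS mice, against the dnFGFR OS values given above, a difference of -0.42 ± 0.155 (adjusted p = 0.655, edgeR). The 2 Mrpl55 values share the dnFGFR OS mice and are not independent of each other. Mrpl1 (0.19 ± 0.101), Mrpl45 (0.12 ± 0.0799) and Mrps27 (0.13 ± 0.0921) had the highest values by p and Mrpl35 (-0.34 ± 0.182) and Mrps18c (-0.26 ± 0.144) followed Mrpl55. The median moved to 0.03 without dnFGFR OS replicate 5, to -0.13 without replicate 2 and to 0.00 after correction for GC content and length. Single genes moved too, with Mrpl35 at -0.52 without dnFGFR OS replicate 5, Mrps18c at -0.41 and Mrpl45 at 0.08 without dnFGFR OS replicate 2, and Mrpl1 at 0.12 without control OS replicate 2. The 5 striatal markers had lower values in dnFGFR mice here as well (median -0.28, none called by edgeR), with summed levels of 1978 to 2490 CPM in control OS against 1272 to 2025 CPM in dnFGFR OS mice. Of these 5, 4 had an unadjusted p below 0.05 by edgeR, as did at most 1 marker of each other list. Lower values were also seen for all 4 choroid plexus markers (median -0.96), all 3 ependymal markers (-0.55), 4 of 6 preoptic area markers (-0.48) and all 4 endothelial markers (-0.08), and higher ones for all 4 astrocyte (0.14), all 4 microglial (0.05) and 2 of 3 neuronal markers (0.15). The cell type not named here had lower values for all 4 markers (-0.117). None of these was called by edgeR, and their part in the members' values was not tested.

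Whether housing acted differently in the genotypes was tested as an interaction over all 20 mice. No member and none of 17445 genes was called (0%). The smallest adjusted p was 0.963, 595 genes had an unadjusted p below 0.05 (3.41%), and DESeq2 called 1 gene, Usp9y, which is not a member and was named after its value was seen. The members' values, the housing difference in dnFGFR mice minus that in control mice, were above 0 for 20 and below for 58, against 50.1% of all genes above 0. Their median was -0.07, with -0.01 without dnFGFR OS replicate 5 and -0.15 without dnFGFR OS replicate 2. All 4 choroid plexus (median -0.999), all 3 ependymal (-0.144), 5 of 6 preoptic area (-0.219) and 4 of 5 striatal markers (-0.12) were below 0. Astrocyte (0.096), microglial (0.185) and endothelial markers (0.17), 3 of 4 each, and 2 of 3 neuronal markers (0.01) were above 0. The cell type not named here was evenly split (0.01). No marker was called by edgeR, and their part in the members' values was not tested. Mrpl55 had -0.56 ± 0.201 (95% interval -0.99 to -0.14, adjusted p = 0.963, edgeR). Mrpl14, a protein of the subunit interface, had -0.72 ± 0.385 and Mrps21 -0.48 ± 0.297, and Mrpl1 (0.25 ± 0.121), Mrps27 (0.18 ± 0.116) and Mrpl3 (0.12 ± 0.0927) led the other direction. Mrpl14 was at -0.44 without dnFGFR SS replicate 5, and Mrps21 at -0.31 without dnFGFR OS replicate 5.

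Mrpl14, short and weakly counted, had the largest within-group spread of any member (SD 0.482), and the part of length and counts was not tested. It had 5.91, 7.83, 10.3, 5.95 and 15.3 CPM in dnFGFR SS and 6.51, 10.4, 4.39, 5.96 and 2.93 CPM in dnFGFR OS mice. The group means spanned 1.5-fold, the most of any member, yet every group overlapped every other. Mrpl14 also overlaps the gene Tmem63b over 622 bases.

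**Figure D5:**
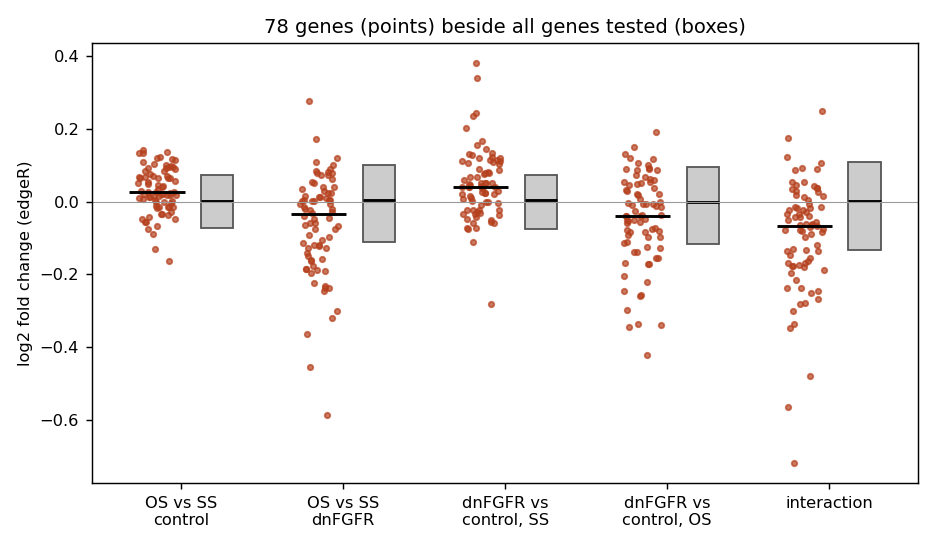
log2 fold changes from edgeR for the 78 members (points, with the median as a line) beside the interquartile range and median of all genes tested (boxes), for 4 comparisons and the interaction. Member medians run from -0.07 to 0.04, and single points reach -0.72 (Mrpl14, interaction) and 0.38.

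Genes that build and serve the mitoribosome were examined from lists, and none of their 83 genes was called in any of the 5 tests by edgeR or DESeq2. With edgeR, an unadjusted p below 0.05 was seen for 9 of them by housing in control mice (against 7.2% of all genes), 4 by housing in dnFGFR mice (6.72%), 4 by genotype with SS (8.63%) and 2 with OS housing (7.02%), and 3 in the interaction (3.41%). Of the 9 in control mice, 5 were among the 20 synthetases, and all 5 had lower values in OS mice. The lists were 5 mitoribosomal proteins named outside the pattern, 13 translation factors, 24 assembly and rRNA modification factors, 20 mitochondrial aminoacyl-tRNA synthetases, 11 genes of mitochondrial DNA maintenance and transcription and 10 nuclear regulators. Mitochondrially encoded genes had no row in the table. Their medians in dnFGFR mice by housing were -0.14, 0.03, -0.02, -0.04, 0.09 and -0.06, in the order listed, against 0.00 for all genes.

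The nearest to a difference by housing in these lists were a regulator and a synthetase in control mice. Ppargc1b, a coactivator of mitochondrial biogenesis, was at 51.5, 53.0, 54.2, 54.6 and 55.6 CPM in control SS and 53.0, 38.9, 42.5, 46.0 and 47.9 CPM in control OS mice, and only OS replicate 1 reached the SS values (-0.24 ± 0.0717, adjusted p = 0.395, edgeR). Lars2, the mitochondrial leucyl-tRNA synthetase, was at -0.26 ± 0.0816 (adjusted p = 0.443). Gabpb1, a GABP subunit, was at 0.16 ± 0.0639 and Polg, the mitochondrial DNA polymerase, at -0.08 ± 0.0478 in the same comparison.

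In dnFGFR mice Tfam, which packages and transcribes mitochondrial DNA, was at 34.2, 34.3, 33.0, 36.2 and 31.9 CPM with SS and 37.2, 40.7, 38.2, 35.0 and 43.5 CPM with OS housing (0.20 ± 0.0763, adjusted p = 0.726, edgeR). The groups overlap through OS replicate 4 and SS replicate 4. The initiation factor Mtif2 was at 0.21 ± 0.0922 and the elongation factor Tsfm at -0.36 ± 0.179. Assembly factors Trmt61b (0.29 ± 0.155) and Mettl17 (-0.22 ± 0.1), the synthetase Pars2 (0.22 ± 0.147) and the mitoribosomal proteins Ptcd3 (0.09 ± 0.0731) and Chchd1 (-0.22 ± 0.166) completed the set.

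Beside the members stand the cytosolic ribosomal protein genes and the nuclear genes of respiratory chain subunits. The 82 cytosolic genes tested had medians of 0.09 by housing in control mice and 0.00 in dnFGFR mice, where the members had 0.03 and -0.04. The 78 respiratory genes had 0.05 and -0.09. No gene of either set was called by housing, and 1 cytosolic gene, Rps2, named after its value was seen, was called lower in dnFGFR SS than in control SS mice (adjusted p = 0.00342, edgeR).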

How the data were processed

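POA RNA of 20 male mice was sequenced on an Illumina platform from NEBNext Ultra libraries. Per the paper's methods the sequencing provider aligned reads with HISAT2 to GRCm38, and the authors counted them with Rsubread on RefSeq genes, and the labels name DESeq2 1.36.0. Whether counting used strand is not given in the sources used here. The deposited values are raw counts per gene. Another 20 columns of the table were not used here. The study's methods include a removal of outlying samples, which was not repeated, and all 20 mice were kept here. One of the marker lists is not reported here. Nothing states litters, so p-values measure the spread between mice.

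Each comparison was fitted on its own groups with edgeR 4.0.16 in R 4.3.3 (filterByExpr, TMM, quasi-likelihood test, Benjamini-Hochberg adjusted p below 0.1), and the interaction on all 20 mice. CPM use TMM-scaled library sizes. Exon length and GC content came from GENCODE transcripts with RefSeq accessions (96.5% of genes had values), positions and promoters from RefSeq on GRCm38.p6. Fits were tested on simulated data for housing in each genotype and the interaction. Of genes changed by 1 on the log2 scale, 93.43% were called in control mice, 88.32% in dnFGFR mice and 73.6% in the interaction. Of those changed by 0.3, 27.14%, 0% and 0% were called, so a member change of that size could go uncalled. Alternatives were DESeq2 1.42.0, other scaling, filters and models, and leaving out each mouse. Same-numbered mice did not deviate together in every pair, so numbers do not pair mice.

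The members, lists and motifs were chosen with earlier results of these data known. Named were called members, the 3 with the smallest p in each direction per comparison, the 4 highest and 4 lowest per length and 11 of known place, and from each list the called genes or the smallest p in each direction over the housing comparisons. The members with extreme spread, correlation or deviation (Mrpl19, Mrpl48, Mrpl54), the printed promoter of Mrpl9 and the pair Mrpl46 and Mrps11 were named after their values were seen.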

Additional observations from a re-analysis of the deposited data

Results flagged for a closer look

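Within a group, 9 of the 148 cases examined, the CPM of 36 named members and the members' summed CPM in each of 4 groups, held a mouse far from the other 4 by Dixon's criterion, or 6.08%, where chance marks about 1 in 20 groups. High mice were dnFGFR OS replicate 2 for Mrpl11 (37.3 CPM, others 21.9 to 26.3), control OS replicate 2 for Mrpl12 (43.3 CPM, others 32.6 to 34.4) and control SS replicate 2 for Mrpl47 (9.67 CPM, others 8.64 to 8.81). Low mice were control SS replicate 3 for Mrpl15 (14.4 CPM, others 18.4 to 19.1) and for Mrpl3 (54.3 CPM, others 62.6 to 64.9), dnFGFR SS replicate 4 for Mrpl24 (32.4 CPM, others 37.4 to 38.9) and control SS replicate 1 for Mrpl45 (29.9 CPM, others 32.6 to 33.6). Mrpl35 was low in dnFGFR SS replicate 3 (16.7 CPM, others 23.2 to 24.3), a mouse in which 68 of 78 members were above their mean. Mrps5 was low in control OS replicate 3 (18.4 CPM, others 26.3 to 29.1).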

How the results depend on the processing

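No member was called in any comparison under any alternative, with the exception of Mrpl41, dnFGFR against control in SS mice. There the count of members called was 1 with DESeq2 (adjusted p = 0.0365), 1 after correction for GC content and length (adjusted p = 0.0814) and 0 to 1 when each mouse was left out, with 1 only without dnFGFR SS replicate 4. The count of all genes called moved more, and the cause was not tested. With DESeq2 it was 157 (housing, control), 5 (housing, dnFGFR), 223 (genotype, SS), 78 (genotype, OS) and 1 (interaction), against 21, 0, 34, 9 and 0 with edgeR. For housing in control mice it was 32 with at least 10 counts in every mouse, 41 after GC and length correction, 58 with that correction and a replicate block, 0 with all 4 groups in 1 fit, 1 within sacrifice dates that held both housings, and 0 to 32 when each mouse was left out (0 without control SS replicate 4). For genotype in SS mice it was 54 with the correction and a replicate block and 21 to 70 when each mouse was left out. For genotype in OS mice it was 22 after correction, 3 with a replicate block, 45 with all 4 groups in 1 fit, 3 to 16 when each mouse was left out, and 21 after correction without dnFGFR OS replicate 5, a setting chosen after seeing the data. Same-numbered mice had correlations of deviations from -0.235 to 0.259 and did not pair, and the replicate block gave 23 genes for housing in control mice and 41 for genotype in SS mice. Within sacrifice dates that held both housings, the member median was 0.05 in control mice (2 with SS, 5 with OS) and -0.08 in dnFGFR mice (2 with SS, 4 with OS). The median over members changed sign when a mouse was left out, from -0.02 to 0.07 for housing in control mice, -0.13 to 0.01 for housing in dnFGFR mice and -0.13 to 0.03 for genotype in OS mice, and stayed below 0 for the interaction, from -0.15 to -0.01. Of the 30 fold changes of named members recomputed this way, 16 moved by over 1.5 times and 0 changed sign. These 30 were chosen by their small p in the same data, which makes a change of sign unlikely.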
